A study of Mus musculus with 12 samples.

Results

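Mitosis and G2/M genes are the genes whose products dividing cells need to condense chromosomes, build a spindle, attach chromosomes to it and divide. A list of 54 such genes was followed in sorted regulatory T (Treg) cells of mice with and without a deletion of CNS4, an enhancer of Foxp3. A gene was kept when its mean over all 12 libraries was 1 CPM or more (counts per library scaled to the same total, as edgeR's CPM). Of the 54 listed genes, all found among the 55453 rows of the count table, 39 were kept, 27 on the plus strand and 12 on the minus strand. The other 15 were all on the minus strand, where the libraries held few counts, and are given apart. The test covered 12411 genes, among them all 39 kept members and 10 of the 15 others (Ccna2, Cdc20, Ckap2, Ckap2l and Anln had too few counts). Just inside the limit stood Kif23 at 1.03 and Kif22 at 1.08 CPM, and just outside it Hmmr at 0.964 and Dlgap5 at 0.830 CPM.

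RNA was sequenced from CD4+Foxp3+ cells that had been isolated by flow cytometry from C57BL/6 mice matched for age and sex. The age was not given, and the organ was not spelled out, though all sample titles hold the letters Thy. Each of 4 groups had 3 libraries: males with the floxed, wild-type enhancer (numbered 1, 2 and 4), males with the enhancer knocked out, floxed heterozygous females and knockout heterozygous females (each numbered 1 to 3). Foxp3 lies on the X chromosome, so the males carried a single copy, and the labels did not say which copy the sorted female cells used. Nor did they say that libraries stand for different animals, so p-values measure the spread between these libraries. Below, knockout means carrying the deletion, which in the females is heterozygous, and values run in the order of the library numbers.

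A cell enters mitosis when cyclin B with CDK1, helped by the Polo and Aurora kinases, phosphorylates many proteins. Condensins and topoisomerase II shape the chromosomes, kinesin motors and microtubule-binding proteins build the spindle, kinetochores couple chromosomes to it, and the spindle checkpoint holds back the anaphase-promoting complex until all are attached. The transcripts peak together late in the cell cycle: many of the promoters carry a cell cycle genes homology region (CHR), bound by the DREAM complex in resting cells and by MYB-MuvB and FOXM1 in cycling cells, with NF-Y sites beside it. Treg cells hold more cycling cells than most resting conventional T cells do.

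Promoter stretches are shown because they hold what many of these genes share by sequence, a feature that did not enter the choice of the 54 listed genes. RefSeq (GRCm38.p6) gave a window from 250 bases before to 50 after the start for 45 of the 54 listed genes. Searched on both strands were the CHR-type letters TTTGAA or TTCGAA, of which the former reads TTCAAA on the other strand, and separately the NF-Y letters CCAAT, which read ATTGG there. A CHR-type and an NF-Y match can overlap only by an end base. The 100 bases before the start are printed 5′ to 3′ along the gene, with matches in capitals. The first 8 genes hold a CHR-type match, Cenpe holds CCAAT alone and Birc5 neither. The printed genes were picked by hand, so their share with a match does not stand for that of the list. Over the members' windows a CHR-type match started most often in the 25 bases after the start, which are not printed.
Ube2c: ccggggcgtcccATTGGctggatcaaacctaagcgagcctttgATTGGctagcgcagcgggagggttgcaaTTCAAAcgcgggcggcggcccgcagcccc
Hmgb2: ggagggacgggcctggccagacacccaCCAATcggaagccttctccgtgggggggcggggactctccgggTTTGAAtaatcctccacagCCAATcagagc
Prc1: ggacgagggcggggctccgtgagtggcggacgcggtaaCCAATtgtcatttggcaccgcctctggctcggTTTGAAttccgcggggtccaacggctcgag
Kif11: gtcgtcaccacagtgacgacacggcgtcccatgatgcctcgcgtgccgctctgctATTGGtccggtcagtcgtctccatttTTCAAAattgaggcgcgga
Kif15: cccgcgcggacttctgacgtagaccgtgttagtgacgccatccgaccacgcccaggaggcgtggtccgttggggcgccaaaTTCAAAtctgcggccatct
Cdk1: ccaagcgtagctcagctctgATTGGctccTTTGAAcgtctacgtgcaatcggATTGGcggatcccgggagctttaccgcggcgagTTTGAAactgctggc
Top2a: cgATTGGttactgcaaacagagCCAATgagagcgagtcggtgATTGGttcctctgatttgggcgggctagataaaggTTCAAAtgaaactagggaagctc
Cdc20: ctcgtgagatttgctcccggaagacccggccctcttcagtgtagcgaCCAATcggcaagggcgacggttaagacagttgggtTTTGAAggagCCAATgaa
Cenpe: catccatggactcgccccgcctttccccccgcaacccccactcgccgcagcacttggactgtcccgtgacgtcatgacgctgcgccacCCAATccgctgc
Birc5: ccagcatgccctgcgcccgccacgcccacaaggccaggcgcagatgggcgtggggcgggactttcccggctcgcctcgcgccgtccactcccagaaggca

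These stretches lie at chr2:164769829-164769928 on the plus strand (Ube2c), chr8:57511743-57511842 on the plus strand (Hmgb2), chr7:80294376-80294475 on the plus strand (Prc1), chr19:37376282-37376381 on the plus strand (Kif11), chr9:122950981-122951080 on the plus strand (Kif15). The others lie at chr10:69352913-69353012 on the minus strand (Cdk1), chr11:99024190-99024289 on the minus strand (Top2a), chr4:118437344-118437443 on the minus strand (Cdc20), chr3:135212463-135212562 on the plus strand (Cenpe), chr11:117849137-117849236 on the plus strand (Birc5). Ube2c, Hmgb2, Cdk1 and Cdc20 carry 2 CCAAT matches each in the printed stretch, and Top2a carries 3. Over the whole window a CHR-type match was found in 35 of 45 members (77.8%), against 21.7% of 27025 genes with a window. Within 50 bases of the start it was found in 31 members (68.9%), against 6.12% of all genes. CCAAT was found in 33 members (73.3%) against 41.1%, both motifs in 30 (66.7%) against 8.61%, and 2 or more CCAAT in 23 (51.1%) against 13.3%. Of the members called higher in knockout cells, described below, 8 of 14 with a window held a CHR-type match, and of the plus-strand members that were not called 6 of 7 did, a difference that was not tested. A match of letters is a description of the sequence, and binding was not measured here.

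**Figure D1:**
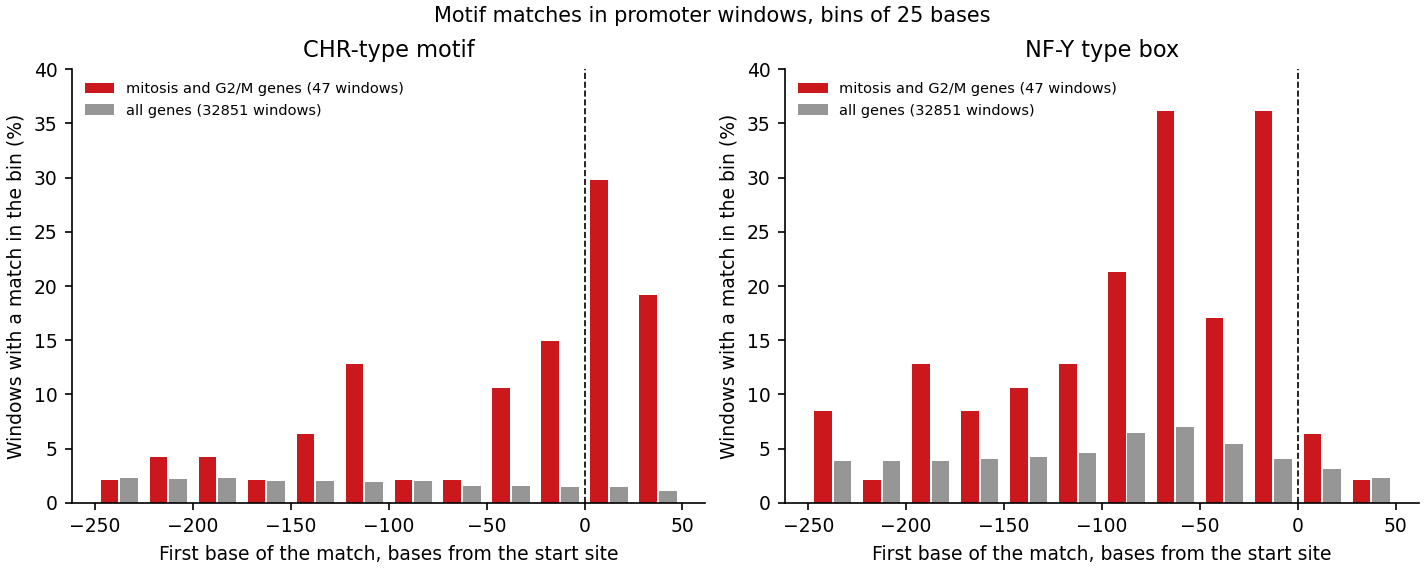
Share of promoter windows (%) with a motif match starting in each bin of 25 bases, against the distance from the start site in bases, for 47 windows of mitosis and G2/M genes (red) and 32851 windows of all genes (grey). The tallest CHR-type bar of the members lies in the 25 bases after the start (29.8% of their windows), and the tallest NF-Y type bars, 36.2% each, lie within the 75 bases before it.

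Counted level split the list by strand. All 27 plus-strand genes had a higher mean level per kb of exon than any of the 27 minus-strand genes. The plus-strand genes ran from 5.72 CPM per kb in Ttk, a checkpoint kinase, to 256 in Smc4, the ATPase shared by both condensins, with Hmgb2, a DNA-bending chromatin protein, next at 88.7. The highest minus-strand gene, Ccnb1 (cyclin B1), reached 1.48 CPM per kb. Genes that textbooks put among the clearest marks of dividing cells were barely counted: Mki67 had 2 to 18 counts per library, Cdk1 4 to 30, Ccna2 2 to 15, Ccnb2 2 to 16, Bub1 1 to 26, Cenpf 3 to 16, Aurka 1 to 32 and Cdc20 0 to 11. In every library, 95.8 to 97.2% of the counts of protein-coding genes lay on plus-strand genes, so a low value on the minus strand cannot be read as a low transcript level. The strand setting of the counting is not given in the sources used here, and the cause of the imbalance was not tested. Of the 27 plus-strand members, 9 overlap an exon of an opposite-strand gene (Kif20a, Kif4, Knstrn, Ncapg, Nusap1, Plk1, Prc1, Tacc3 and Ube2c), and counts of such genes may be shared with the partner.

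**Figure D2:**
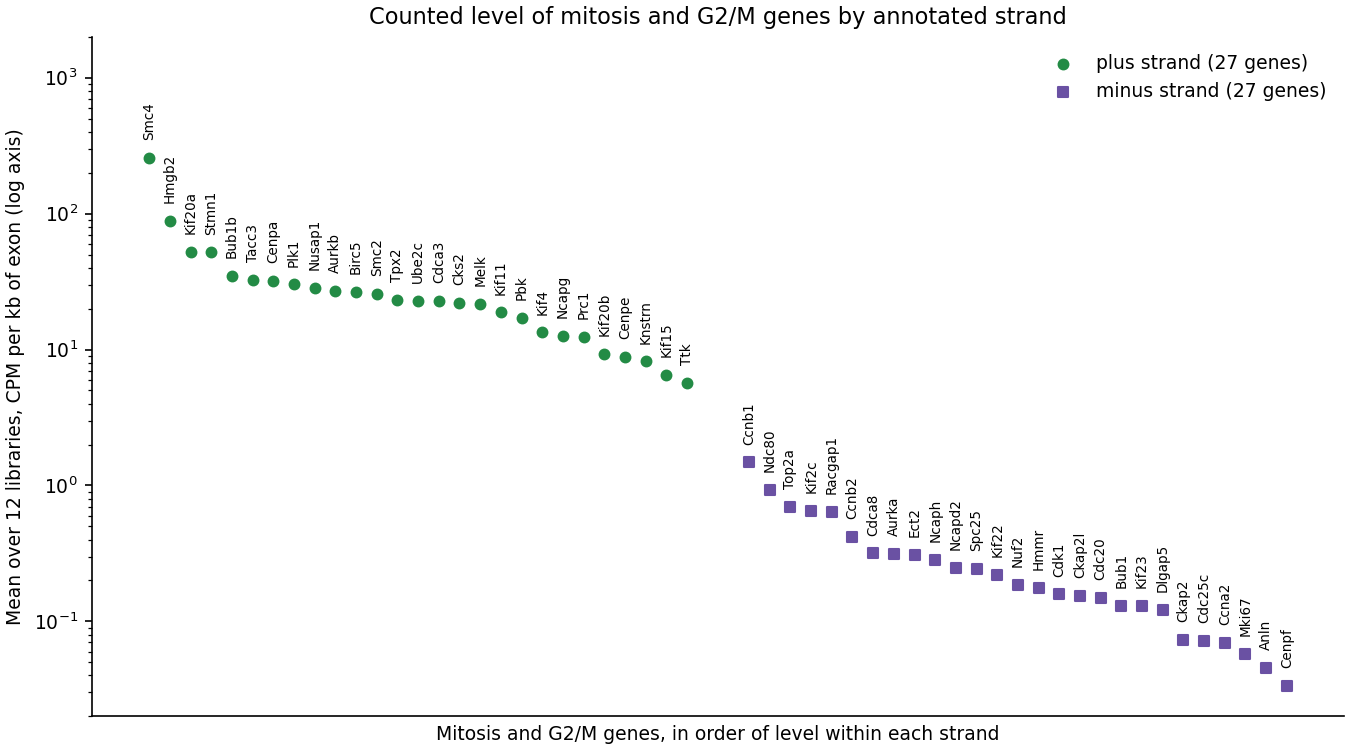
Mean level over 12 libraries (CPM per kb of exon, log axis) of the 54 listed genes, in order of level, plus-strand genes as green circles and minus-strand genes as purple squares. The lowest plus-strand gene, Ttk at 5.72, lies above the highest minus-strand gene, Ccnb1 at 1.48.

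The first comparison, knockout against floxed cells over both sexes, asks how the genes for cell division differ when the enhancer is deleted. Of the 39 kept members, 18 rose in knockout cells and 0 fell at an adjusted p under 0.05 (edgeR quasi-likelihood test, Benjamini-Hochberg over all 12411 genes). Of all genes tested, 2.68% were called higher and 0.637% lower. All 18 were plus-strand genes, 18 of 27, and 0 of the 12 minus-strand genes were called. Of all 9473 plus-strand genes tested, 306 were called higher, and of all 2850 minus-strand genes tested, 25 were. The median log2 fold change was 0.79 over the 39 members, 0.79 on the plus and 0.80 on the minus strand, and -0.02 over all genes. It lay above 0 for 37 members, Smc4 and Cenpa being the exceptions. At an unadjusted p under 0.05, 32 members were higher and 1, Smc4, was lower. At that limit 1465 of all 12411 genes were higher and 1047 lower. DESeq2 called 25 members higher and 0 lower, and limma-voom called 32 higher and 2 lower, where it called 37.3% of all genes. The share of all genes called by DESeq2 is not given here. In these bulk libraries, more cells in division and more of these transcripts per dividing cell cannot be told apart.

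The number of calls depended on single libraries. Without female floxed library 2 it fell to 3, without female floxed library 3 to 5, and without male floxed 2 or female knockout 3 to 6. It was 7 without male floxed 1, female floxed 1, male knockout 1 or male knockout 2, and 8 without female knockout 1. Without female knockout library 2 it reached 29, and 25 members were called without male knockout 3. The share of all genes called in these fits is not given here. Leaving out both female knockout 1 and 3, the libraries with the lowest correlation with GC content, left 0 calls by edgeR, with a median of 0.70. Over the 23 alternatives run, Kif15, Cenpe and Hmgb2 passed the threshold in 22, Melk and Stmn1 in 21, Smc2 in 19, Kif4 in 18 and the other 11 called members in 12 to 14. The median over members lay between 0.70 and 1.01 in all 23.

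**Figure D3:**
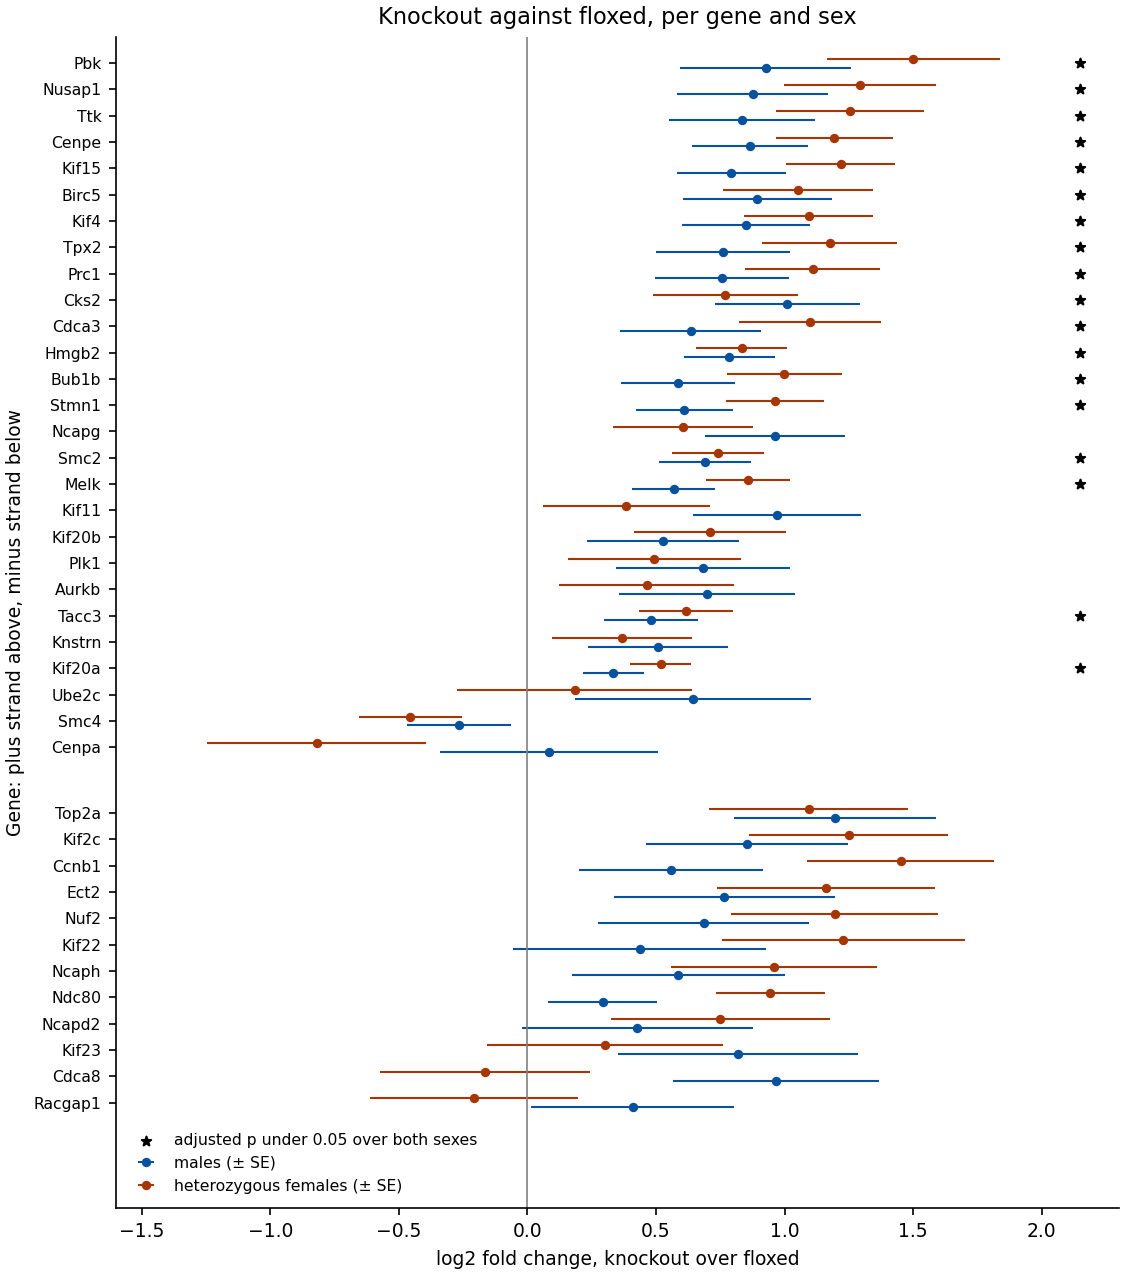
Log2 fold change, knockout over floxed, with its standard error for each of the 39 kept genes in males (blue) and heterozygous females (orange-brown), plus-strand genes above and minus-strand genes below. Stars mark the 18 genes with an adjusted p under 0.05 over both sexes, which all lie to the right of 0.

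Among the genes for chromosome structure, 2 of 4 plus-strand members rose. Hmgb2 was measured at 163, 175 and 241 CPM in the male floxed and 349, 388 and 262 CPM in the male knockout libraries, and at 196, 187 and 198 CPM in the female floxed and 373, 308 and 354 CPM in the female knockout libraries. All knockout libraries stood above all floxed libraries of the same sex, with a log2 fold change of 0.81 (standard error 0.13, adjusted p = 0.00930 by edgeR). Smc2 had 91.7, 99.4 and 122 CPM in the male floxed and 188, 195 and 121 CPM in the male knockout libraries, and 116, 103 and 107 CPM in the female floxed and 180.0, 171 and 192 CPM in the female knockout libraries. Smc2, an ATPase arm of condensin, rose by a log2 fold change of 0.72 (standard error 0.13, adjusted p = 0.0160 by edgeR): females did not overlap, while male knockout library 3 lay within the floxed range. Ncapg, a regulatory subunit of condensin I, had a log2 fold change of 0.78 (standard error 0.19, adjusted p = 0.0544 by edgeR) and did not overlap in either sex. Its partner Smc4 had a value below 0, and is named here because its values stood out. Smc4 stood at 1732, 1635 and 1156 CPM in the male floxed and 1460, 1321 and 979 CPM in the male knockout libraries, and at 1389, 1579 and 1499 CPM in the female floxed and 988, 1354 and 916 CPM in the female knockout libraries. Each male group had a library among the lowest, floxed 4 and knockout 3, so males overlapped, while all female knockouts lay under all female floxed libraries. The difference of Smc4 did not pass the test, at a log2 fold change of -0.36 (standard error 0.14, adjusted p = 0.194 by edgeR).

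Of 6 plus-strand mitotic kinases, 4 rose. Melk was measured at 43.7, 47.7 and 60.7 CPM in the male floxed and 78.6, 75.7 and 71.4 CPM in the male knockout libraries, and at 45.4, 43.0 and 51.1 CPM in the female floxed and 98.4, 74.8 and 79.4 CPM in the female knockout libraries. Melk, a kinase of dividing cells, rose by a log2 fold change of 0.71 (standard error 0.12, adjusted p = 0.0114 by edgeR), with no overlap in either sex. Ttk had 12.8, 14.9 and 26.4 CPM in the male floxed and 29.9, 39.6 and 26.9 CPM in the male knockout libraries, and 17.2, 15.7 and 22.4 CPM in the female floxed and 49.7, 37.1 and 45.1 CPM in the female knockout libraries. Ttk, also called MPS1, which starts the spindle checkpoint, rose by a log2 fold change of 1.04 (standard error 0.20, adjusted p = 0.0217 by edgeR), again without overlap. Pbk, a kinase active in mitosis, showed the largest change among the called members. Pbk stood at 13.2, 19.5 and 32.7 CPM in the male floxed and 37.2, 56.4 and 30.7 CPM in the male knockout libraries, and at 16.1, 14.3 and 16.3 CPM in the female floxed and 38.0, 38.5 and 56.1 CPM in the female knockout libraries. Male floxed library 4 lay above male knockout library 3, and the females did not overlap. It rose by a log2 fold change of 1.21 (standard error 0.24, adjusted p = 0.0222 by edgeR). Bub1b (BUBR1), the checkpoint protein that restrains the anaphase-promoting complex, rose by a log2 fold change of 0.79 (standard error 0.16, adjusted p = 0.0235 by edgeR). The remaining pair are the best known of the group and did not pass. Plk1 was measured at 35.9, 47.5 and 92.1 CPM in the male floxed and 77.2, 114 and 90.4 CPM in the male knockout libraries, and at 51.7, 40.2 and 48.4 CPM in the female floxed and 45.2, 81.9 and 70.6 CPM in the female knockout libraries. Plk1, the Polo kinase of mitotic entry, had a log2 fold change of 0.59 (standard error 0.24, adjusted p = 0.205 by edgeR). Aurkb had 42.2, 62.3 and 112 CPM in the male floxed and 101, 142 and 108 CPM in the male knockout libraries, and 57.8, 46.0 and 60.5 CPM in the female floxed and 55.0, 103 and 68.8 CPM in the female knockout libraries. Aurkb, the kinase of the chromosomal passenger complex, had a log2 fold change of 0.58 (standard error 0.24, adjusted p = 0.216 by edgeR). In both, male floxed 4 reached the knockout range and female knockout 1 lay in the floxed range.

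Birc5 (survivin), which carries Aurkb to the centromere, did rise, by a log2 fold change of 0.97 (standard error 0.21, adjusted p = 0.0312 by edgeR), and overlapped in neither sex. The cyclin-dependent kinase module had a single plus-strand member, Cks2, a small CDK-binding subunit. It rose by a log2 fold change of 0.89 (standard error 0.20, adjusted p = 0.0385 by edgeR), with 10.1, 8.07 and 13.4 CPM in male floxed and 23.2, 26.0 and 14.4 CPM in male knockout libraries. In females the same gene had 9.93, 10.3 and 12.7 CPM in floxed and 23.8, 15.1 and 17.2 CPM in knockout libraries. Cdca3, which helps to trigger mitotic entry through degradation of WEE1, rose by a log2 fold change of 0.87 (standard error 0.19, adjusted p = 0.0393 by edgeR). Ube2c, the ubiquitin-conjugating enzyme of the anaphase-promoting complex, had a log2 fold change of 0.41 (standard error 0.32, adjusted p = 0.481 by edgeR). Ube2c was measured at 28.4, 43.8 and 105 CPM in the male floxed and 79.6, 125 and 72.0 CPM in the male knockout libraries, and at 38.4, 40.2 and 43.1 CPM in the female floxed and 29.8, 69.5 and 39.0 CPM in the female knockout libraries. The Ube2c groups overlapped in both sexes, and the female knockout libraries 1 and 3 lay under or within the floxed range.

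At the kinetochore and centromere, 1 of 3 plus-strand members rose. Cenpe was measured at 38.7, 49.0 and 69.0 CPM in the male floxed and 108, 104 and 73.7 CPM in the male knockout libraries, and at 49.4, 44.8 and 50.1 CPM in the female floxed and 124, 92.0 and 115 CPM in the female knockout libraries. Cenpe, the motor that moves chromosomes to the spindle equator, rose by a log2 fold change of 1.03 (standard error 0.16, adjusted p = 0.00930 by edgeR), all knockouts being above all floxed libraries of the same sex. Cenpa had 206, 206 and 247 CPM in the male floxed and 218, 231 and 249 CPM in the male knockout libraries, and 144, 204 and 216 CPM in the female floxed and 53.0, 205 and 61.5 CPM in the female knockout libraries. Cenpa is the histone H3 variant that marks the centromere. It had a log2 fold change of -0.37 (standard error 0.30, adjusted p = 0.503 by edgeR). The male groups overlapped, and female knockout libraries 1 and 3 were the lowest of all 12 while library 2 was in the floxed range. Without female knockout 1 and 3 the Cenpa value turned to 0.10 (edgeR adjusted p = 0.897), and without female knockout 2 it was -0.80 (edgeR adjusted p = 0.00204), the ends of the range over 23 alternatives. Knstrn, a spindle and kinetochore adaptor, had a log2 fold change of 0.44 (standard error 0.19, adjusted p = 0.236 by edgeR).

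All 4 plus-strand genes for spindle assembly rose. Stmn1 was measured at 54.8, 77.9 and 91.6 CPM in the male floxed and 107, 124 and 112 CPM in the male knockout libraries, and at 71.5, 64.0 and 78.1 CPM in the female floxed and 152, 115 and 149 CPM in the female knockout libraries. Stmn1 (stathmin), which binds free tubulin, rose by a log2 fold change of 0.79 (standard error 0.13, adjusted p = 0.0135 by edgeR) and did not overlap in either sex. Tpx2 had 54.4, 64.0 and 117 CPM in the male floxed and 133, 149 and 117 CPM in the male knockout libraries, and 67.5, 61.5 and 75.8 CPM in the female floxed and 167, 125 and 170.1 CPM in the female knockout libraries. Tpx2, the activator of Aurora A on the spindle, rose by a log2 fold change of 0.97 (standard error 0.18, adjusted p = 0.0206 by edgeR). Nusap1 stood at 48.0, 75.8 and 112 CPM in the male floxed and 145, 182 and 106 CPM in the male knockout libraries, and at 67.7, 64.8 and 76.0 CPM in the female floxed and 193, 132 and 185 CPM in the female knockout libraries. Nusap1, which bundles microtubules, rose by a log2 fold change of 1.08 (standard error 0.21, adjusted p = 0.0218 by edgeR). In Tpx2 and Nusap1 the females did not overlap, and in males floxed library 4 reached the value of knockout library 3. Tacc3, which steadies kinetochore fibres with clathrin and CKAP5, rose by a log2 fold change of 0.55 (standard error 0.13, adjusted p = 0.0458 by edgeR). Ckap5 itself, from the wider spindle list, rose by a log2 fold change of 0.39 (standard error 0.09, adjusted p = 0.0458 by edgeR).

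Among the spindle motors 3 of 5 plus-strand members rose. Kif15 was measured at 35.1, 48.3 and 63.1 CPM in the male floxed and 87.9, 97.8 and 68.4 CPM in the male knockout libraries, and at 46.3, 43.0 and 48.8 CPM in the female floxed and 114, 95.9 and 112 CPM in the female knockout libraries. Kif15, a plus-end motor that keeps the spindle bipolar, had the smallest p of all members and rose by a log2 fold change of 1.01 (standard error 0.15, adjusted p = 0.00808 by edgeR). Kif4 had 34.5, 43.9 and 70.4 CPM in the male floxed and 87.5, 104 and 76.7 CPM in the male knockout libraries, and 54.4, 44.2 and 50.8 CPM in the female floxed and 117, 85.8 and 116 CPM in the female knockout libraries. Kif4, a chromosome-bound motor, rose by a log2 fold change of 0.97 (standard error 0.18, adjusted p = 0.0175 by edgeR). Kif20a stood at 166, 195 and 227 CPM in the male floxed and 246, 255 and 241 CPM in the male knockout libraries, and at 193, 188 and 196 CPM in the female floxed and 287, 255 and 285 CPM in the female knockout libraries. Kif20a, a motor of the central spindle, rose least among the called members, by a log2 fold change of 0.43 (standard error 0.08, adjusted p = 0.0234 by edgeR). In these 3 genes every knockout library stood above every floxed library of the same sex. Kif20a shares 1271 exon bases with Cdc23 on the opposite strand, which had 46 to 101 counts per library. Kif11 (Eg5), the motor that pushes spindle poles apart, did not pass, at a log2 fold change of 0.68 (standard error 0.23, adjusted p = 0.140 by edgeR), or 0.97 in males and 0.38 in females. Kif20b, a motor of late cytokinesis, had a log2 fold change of 0.62 (standard error 0.21, adjusted p = 0.138 by edgeR). Prc1, the cytokinesis protein that bundles midzone microtubules, rose by a log2 fold change of 0.93 (standard error 0.18, adjusted p = 0.0236 by edgeR).

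**Figure D4:**
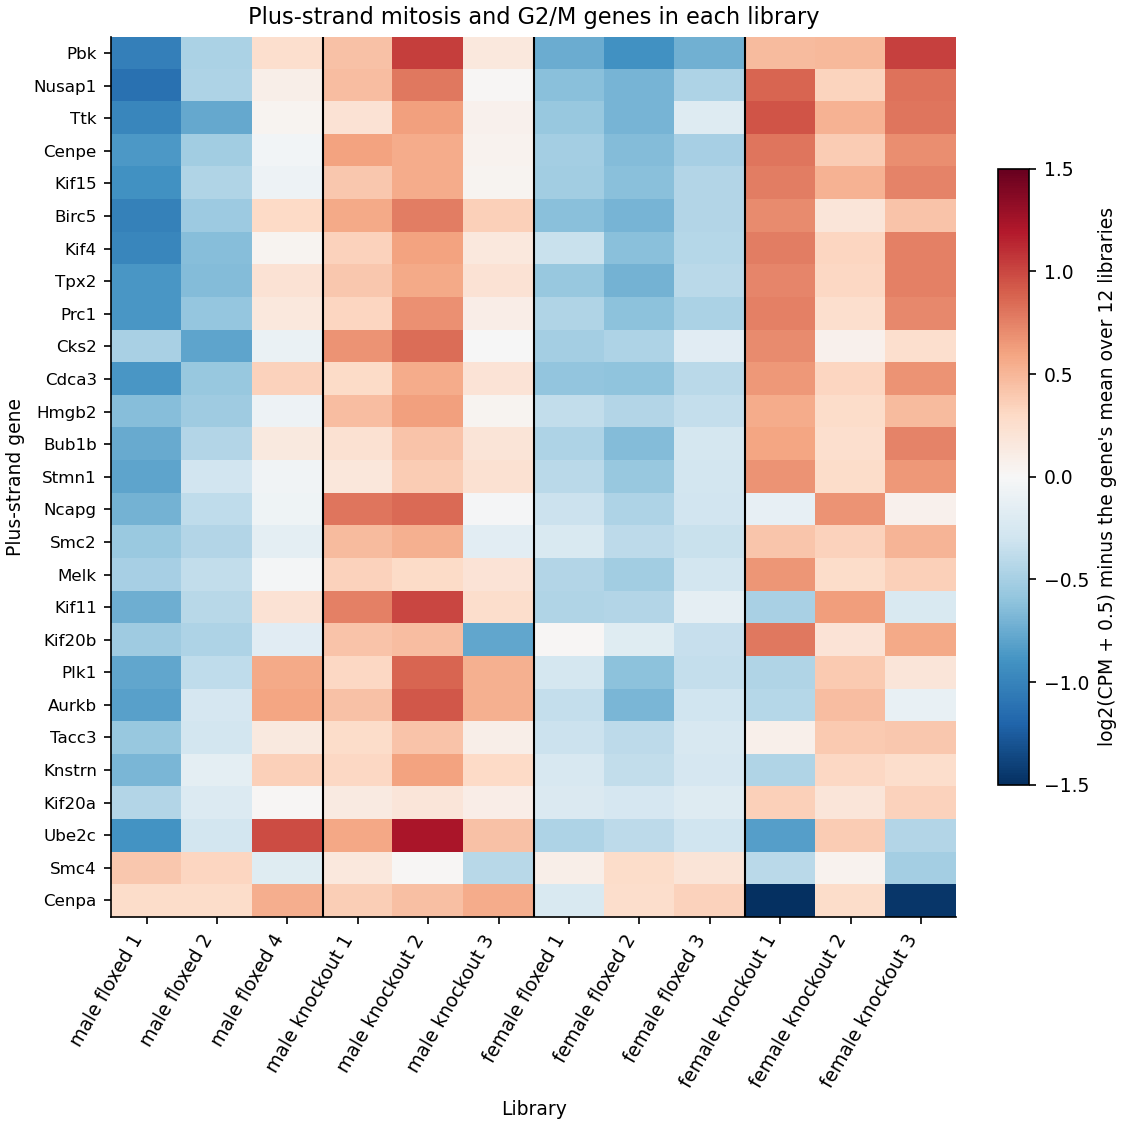
Log2(CPM + 0.5) of the 27 plus-strand genes in each of the 12 libraries, less the gene's mean over all libraries (red higher, blue lower), black lines dividing the 4 groups. Most rows are blue in the floxed and red in the knockout libraries, male floxed 4 being near the mean, and Cenpa is bluest in female knockout 1 and 3.

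On the minus strand 0 of 12 kept members were called by edgeR, 8 had an unadjusted p under 0.05, DESeq2 called 6 and limma-voom 8. Of all 2850 minus-strand genes tested, edgeR called 0.877% higher, so 0 of 12 is near the background. The unadjusted p was under 0.05 for 415 of the 2850, of which 168 were higher, and all 8 members were higher. Top2a was measured at 3.10, 2.17 and 3.89 CPM in the male floxed and 9.31, 8.73 and 3.11 CPM in the male knockout libraries, and at 4.93, 4.91 and 4.47 CPM in the female floxed and 12.8, 7.58 and 10.2 CPM in the female knockout libraries. Top2a, topoisomerase II alpha, which untangles sister chromatids, had the lowest adjusted p of the 12, with a log2 fold change of 1.15 (standard error 0.28, adjusted p = 0.0509 by edgeR). Its knockout libraries lay above all floxed ones in females, and in males floxed 4 and knockout 3 overlapped. Under the alternatives Top2a passed the threshold in 8 of 22, with adjusted p from 0.00104 to 0.351 over edgeR, DESeq2 and limma fits. Ccnb1 had 2.90, 4.11 and 7.51 CPM in the male floxed and 6.04, 9.66 and 5.74 CPM in the male knockout libraries, and 3.58, 2.87 and 3.92 CPM in the female floxed and 11.5, 7.08 and 9.89 CPM in the female knockout libraries. Ccnb1, the cyclin of CDK1, had a log2 fold change of 1.01 (standard error 0.25, adjusted p = 0.0613 by edgeR) and the largest female fold change of the 12, 1.45. Ndc80, the microtubule-binding subunit of the outer kinetochore, had a log2 fold change of 0.62 (standard error 0.15, adjusted p = 0.0526 by edgeR). On the same log2 scale Kif2c, a microtubule depolymerase, had 1.05, Nuf2, the partner of Ndc80, 0.94, and Ect2, the activator of RhoA in cytokinesis, 0.96. The other condensin subunits Ncaph and Ncapd2 had 0.77 and 0.59, and the motors Kif22 and Kif23 had 0.83 and 0.56. Racgap1, of the central spindle, was near 0 at 0.10. Cdca8 was measured at 0.897, 1.55 and 1.39 CPM in the male floxed and 2.33, 3.57 and 1.67 CPM in the male knockout libraries, and at 1.01, 2.11 and 1.22 CPM in the female floxed and 0.905, 1.72 and 1.25 CPM in the female knockout libraries. Cdca8 (borealin), of the chromosomal passenger complex, had log2 fold changes of 0.97 in males and -0.16 in females, the widest gap between the sexes among the 39. Of the 10 tested genes under the limit, 9 had values above 0, 0 were called by edgeR and 5 had an unadjusted p under 0.05; Mki67 had a log2 fold change of 1.37 (standard error 0.35, adjusted p = 0.0626 by edgeR) on its 2 to 18 counts.

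Summing the genes shows each library. The 26 plus-strand members without Smc4 (Smc4 was given apart above) added up to 1559, 1879 and 2708 CPM in the male floxed libraries, 3217, 3697 and 2725 CPM in the male knockouts, 1857, 1783 and 2008 CPM in the female floxed and 3133, 3062 and 3205 CPM in the female knockouts. Every knockout library lay above every floxed library of the same sex, by a narrow margin in males, where floxed 4 nearly reached knockout 3. With Smc4 added to the sum the males overlapped, at 3864 CPM in floxed 4 and 3704 CPM in knockout 3, while the females did not. The sum of the 12 minus-strand members was 19.5, 23.9 and 32.5 CPM in the male floxed libraries, 42.1, 47.8 and 29.1 CPM in the male knockouts, 25.4, 27.0 and 26.2 CPM in the female floxed and 58.4, 41.8 and 49.7 CPM in the female knockouts. Male floxed 4 exceeded male knockout 3 in this sum, and the females did not overlap.

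**Figure D5:**
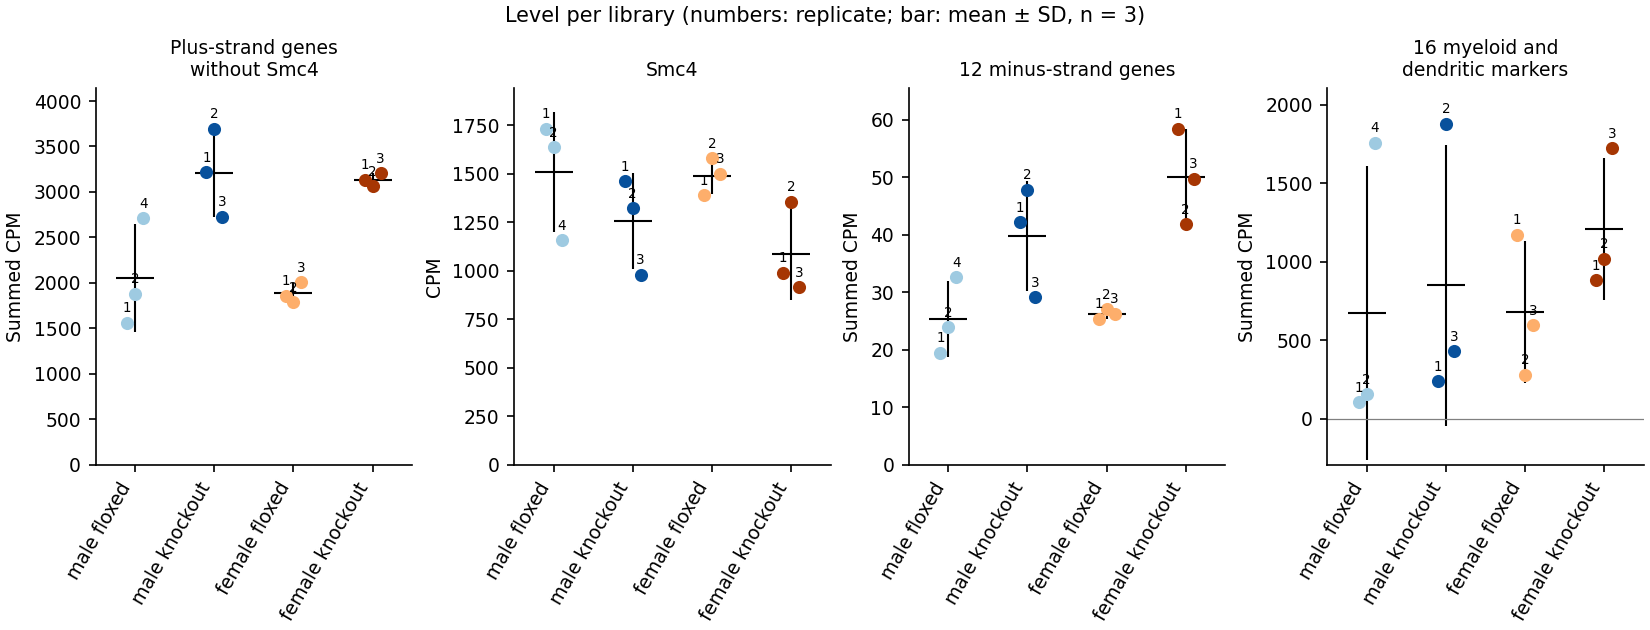
Level per library (CPM) in the 4 groups, each point a library with its replicate number, bars the mean ± SD (n = 3), for the 26 plus-strand genes without Smc4, Smc4 alone, the 12 minus-strand genes and 16 myeloid and dendritic markers. The first panel, which leaves out Smc4, separates knockout from floxed libraries in both sexes, and in the last panel every group spans a wide range.

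Within males, the contrast of the hemizygous animals, 0 of 39 members were called by edgeR, where 0.0242% of all genes were called higher. The unadjusted p was under 0.05 for 22 members, all higher. Among all 12411 genes it was under 0.05 for 1008, of which 654 were higher. DESeq2 called 6 members and limma-voom 12. For DESeq2 and limma-voom the share of all genes called in males is not given here, so these counts have no background beside them. The lowest adjusted p was 0.151, in Hmgb2. The male median was 0.69, with 38 of 39 members above 0, beside 0.01 over all genes; without male floxed library 4 it was 1.04, and Tpx2 and Birc5 were then called, 2 of 39. The groups did not overlap, knockouts being higher, in 14 of 39 members, against 8.2% of all genes.

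In heterozygous females 0 of 39 members were called by edgeR, where 0.201% of all genes were called in either direction. The unadjusted p was under 0.05 for 29, of which 28 were higher and Smc4 lower. Among all 12411 genes it was under 0.05 for 2378, of which 1220 were higher and 1158 lower. DESeq2 called 20 members and limma-voom 29, of which 27 were higher and 2 lower. Without female knockout library 2 edgeR called 24 (22 higher, 2 lower), without male floxed library 4 it called 13, and without male floxed 1 or male knockout 3 it called 1, Kif15. For DESeq2, limma-voom and the fits with libraries left out, the share of all genes called in females is not given here. These counts therefore have no background beside them. Kif15 had the lowest adjusted p by edgeR, 0.0562. The female median was 0.94 with 35 members above 0, beside -0.02 over all genes. Knockout libraries lay above all floxed libraries in 28 of 39 members, against 15.3% of all genes. In both sexes at once this held for 12 members, against 3.97% of all genes: Hmgb2, Ncapg, Bub1b, Ttk, Melk, Birc5, Cks2, Cenpe, Stmn1, Kif4, Kif15 and Kif20a.

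The larger female median was not matched by a difference that passed a test. For the female minus the male fold change, 0 of 39 members were called by edgeR, as were 0.0% of all genes. None of the members had an unadjusted p under 0.05, against 339 of all 12411 genes. The lowest was 0.0531 by edgeR for Ndc80, with log2 fold changes of 0.29 in males and 0.94 in females. DESeq2 called 0 members, and limma-voom called 2, Cenpa and Kif11, both lower in females, where it called 8.38% of all genes. Without female knockout library 2, edgeR called 1 member, Cenpa, with a log2 difference of -1.80 (edgeR adjusted p = 0.00575).

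The female knockout libraries ordered the plus-strand members in opposite ways. In 8 members library 2 was the highest of the 3: Plk1, Aurkb, Cenpa, Kif11, Ube2c, Smc4, Ncapg and Knstrn. The ratio of library 2 to the mean of libraries 1 and 3 ran from 1.29 in Knstrn to 3.58 in Cenpa. In 17 members library 2 was the lowest, with ratios from 0.699 to 0.921, and Pbk and Tacc3 lay between. Of the 17, 16 were called over both sexes, Kif20b being the exception, and 0 of the 8 were, by edgeR. The male medians of the 2 sets were 0.66 for the 8 and 0.76 for the 17, and the female medians 0.38 and 1.05. These sets were formed on the values themselves, so the figures are a description. GC content of the 8 ranged from 34.8 to 56.0%, median 47.8%, and that of the 17 from 38.7 to 51.1%, median 44.9%. Over all genes, the rank correlation of a gene's deviation with its GC content was -0.387, -0.124 and -0.306 in the female knockout libraries, -0.0467, 0.0668 and 0.229 in the female floxed, 0.154, 0.248 and 0.499 in the male floxed and -0.0813, 0.0260 and 0.401 in the male knockouts. Mitochondrial genes took 4.04, 2.77 and 3.40% of counts in the female knockouts and 1.17 to 2.69% in the other groups. Their part in the results was not tested, beyond the fit with the GC and length trend removed, in which 18 members were called.

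Other genes of the pathway, from lists outside the 54, were called less evenly. Of 22 tested kinetochore and CENP genes, 7 rose and 0 fell by edgeR (median 0.45): Kntc1, which brings the checkpoint to kinetochores, had a log2 fold change of 0.95 (standard error 0.14, adjusted p = 0.00808 by edgeR), and Cenpl, Cenpn and Knl1 had 0.63, 0.80 and 1.09. Of 29 spindle and centrosome genes 5 rose (median 0.19), among them Spag5, Kif18a, Tuba1c and Cep55, the abscission organiser, the last at 1.04. Condensin II and cohesin had 2 of 19 (median 0.12), Ncapg2 at 0.95 and Cdca5 (sororin) at 0.91. Entry kinases and phosphatases had 2 of 16 (median 0.33), Bora at 0.53 and Cdkn3 at 0.97. The checkpoint and anaphase-promoting complex had 1 of 18 (median -0.15), Mad2l1, the checkpoint effector, at 0.77. Cytokinesis had 1 of 15 (median 0.17), the minus-strand gene Shcbp1 at 1.41 on 4 to 27 counts. No gene of these 6 lists was called lower by edgeR or DESeq2, while limma-voom called genes lower in 5 of them, from 2 to 6 a list. Beside the 2.68% of all genes called higher and 0.637% lower by edgeR, 1 call in 15 or 18 genes, or none lower, is near the background.

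Of 16 tested DREAM, MYB-MuvB and FOXM1 genes, which act on such promoters, 0 passed by edgeR, a count near the 2.68% of all genes called higher. Of these, 1 (Tfdp1) had an unadjusted p under 0.05 and DESeq2 called 1, while limma-voom called 3 higher and 3 lower. Foxm1 had a log2 fold change of 0.39 (standard error 0.29, adjusted p = 0.458 by edgeR) and Mybl2 a log2 fold change of -0.05 (standard error 0.31, adjusted p = 0.943 by edgeR). S phase genes, counted as a neighbour of mitosis in the cycle, rose in 12 of 27 (median 0.55), 5 of them on the minus strand. Pole, a replicative polymerase, had a log2 fold change of 0.88 (standard error 0.10, adjusted p = 0.00325 by edgeR) and Prim1, the primase, a log2 fold change of 0.88 (standard error 0.10, adjusted p = 0.00325 by edgeR). G1 cyclins, CDKs, inhibitors and E2F genes had 1 call in 11 (median -0.21), Ccne2 at 0.84.

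The libraries held 12423335 to 30244505 gene counts. Markers of the sorted cell were present in all: Foxp3 had 2675, 2588 and 2227 CPM in the male floxed libraries, 1878, 1462 and 2037 CPM in the male knockouts, 2582, 2658 and 2657 CPM in the female floxed and 685, 1824 and 825 CPM in the female knockouts, and no gene of the Treg or T cell lists was at 0, although Cd4, on the minus strand, had 72 to 198 counts. Among the female knockouts Foxp3 was highest in library 2, where the 18 called members summed lowest, at 2146 CPM against 2643 in library 1 and 2627 in library 3, as did the minus-strand members. The called members were picked on these same values. All plus-strand members, Smc4 included, summed highest in library 2, at 4416 CPM against 4121 CPM in libraries 1 and 3. A relation of the members to the Foxp3 level was not tested. The 16 myeloid and dendritic markers summed to 108, 158 and 1758 CPM in the male floxed libraries, 242, 1880 and 432 CPM in the male knockouts, 1172, 281 and 598 CPM in the female floxed and 885, 1020 and 1722 CPM in the female knockouts, none being at 0 in all libraries. Of 12 tested, 0 were called and 0 had an unadjusted p under 0.05 by edgeR, 0 were called by DESeq2 and 3 by limma-voom, and their median was 0.72. Male floxed 4 and male knockout 2 were each the highest library of their own group in both these markers and the mitosis genes. Without that pair 18 members were called, in a fit that kept all female libraries. The share of all genes called in that fit is not given here. In females the myeloid sum had a mean ± SD over 3 libraries of 684 ± 452 CPM without and 1209 ± 449.7 CPM with the deletion, and the female median of the 12 markers was 0.998. The 11 markers of immature thymocytes, a dividing population of the thymus, summed to 618, 585 and 764 CPM in the male floxed libraries, 619.6, 899 and 435 CPM in the male knockouts, 912, 724 and 752 CPM in the female floxed and 978, 779 and 1405 CPM in the female knockouts. All 8 tested markers lay above 0 over both sexes by edgeR, with a median of 0.33, and in females the median was 0.56. In females edgeR called 0 of these markers, while DESeq2 called 1 and limma-voom 7, all higher. The share of all genes called by DESeq2 and limma-voom in females is not given here. In males the marker sum was lowest in knockout 3, the male knockout library with the lowest sum of mitosis genes. In females the marker sum was highest in knockout 3. This library had the highest female sum of mitosis genes without Smc4, though knockout 2 was highest with Smc4. Male floxed 1 and male knockout 1 had like marker sums, 618 and 619.6 CPM. Their mitosis sums without Smc4 were 1559 and 3217 CPM. Female floxed 1 exceeded female knockout 2 in the markers, at 912 against 779 CPM. Its mitosis sum without Smc4 was lower, at 1857 against 3062 CPM. These pairs of libraries were picked by hand, so their values are a description. Of the thymic epithelium, red cell and NK lists, Krt5, Foxn1, Hbb-bt and Klrb1c were at 0 in all libraries, all 4 on the minus strand. The part of these cell types in the result was not tested.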

How the data were processed

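RNA-seq counts of 12 libraries in 4 groups of 3 were used, each library mapped to its group by its title. The authors deposited a table of raw counts, 1 row a gene symbol. The submitters' processing notes name HTSeq 0.6.1p1, CASAVA, and STAR in versions 2.3.0e and 2.5.2b, with mm9 as the genome build. Libraries were made from total RNA with a stranded kit, per the labels. The annotation and strand setting are not given in the sources used here. The 5 HTSeq summary entries, of which reads outside genes were 44.3 to 46.9% of a library, did not enter library sizes or tests. Genes were matched by symbol to GENCODE M21 (54510 of 55453) for strand, exon length and GC content, and to RefSeq promoter windows.

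The main test was edgeR 4.0.16 (R 4.3.3) with TMM scaling, filterByExpr with a minimum count of 10, the robust quasi-likelihood fit of 4 group means, and Benjamini-Hochberg adjustment over 12411 genes at a threshold of 0.05. CPM are TMM-scaled, and the steps were tested on simulated data with known changes. Library totals ran from 12423335 to 30244505 counts, and the few of them on minus-strand genes limit what can be seen there. DESeq2 1.42.0, limma 3.58.1 (voom with quality weights), other scalings and filters, a GC and length trend, a replicate block and left-out libraries were the alternatives.

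The members and lists were chosen with earlier results of these data known. Values in every library are given for the 12 called plus-strand members with the smallest p and for set hallmark genes where kept. Also named were the members with the largest and smallest fold change and the widest gap between sexes, and of each further list up to 4 called genes with the smallest p. Smc4, Ncapg, Kif11, Kif20b, Knstrn, Ube2c, Ckap5, the other 6 called members and the remaining minus-strand members were added after their values were seen.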

Additional observations from a re-analysis of the deposited data

How the results depend on the processing

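Over both sexes the count of members called, 18, was within 1.5 times that value under DESeq2 (25), RLE scaling (17), both filters (21 each), plus-strand genes alone (18), the GC and length trend removed (18) and without male floxed 4 with male knockout 2 (18). It was 34 with limma-voom, which called 1834 genes higher and 2796 lower against 332 and 79 by edgeR, 0 without female knockout 1 and 3, and 3 to 29 when each library was left out in turn. In males it moved from 0 to 6 with DESeq2, 12 with limma-voom and 0 to 2 with libraries left out in turn. The male median moved to 0.99 with limma-voom and 0.47 to 1.04 with libraries left out. In females the count moved from 0 to 20 with DESeq2, 29 with limma-voom, 3 with the stricter filter (Kif15, Cenpe and Melk), 11 without a filter, 1 on plus-strand genes alone (Kif15), 10 without male floxed 4 with male knockout 2, and 0 to 24 with libraries left out. For the difference between sexes it was 2 with limma-voom and 0 to 1 with libraries left out. The medians over both sexes and in females moved by less than the spread between replicates in all alternatives. The direction of Cenpa turned, to 0.10, without female knockout 1 and 3. Fewer libraries went into each fit with some left out, and otherwise the cause was not tested.

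Correlations between libraries did not settle whether replicate numbers pair them, as their signs differed. Same-numbered libraries had deviation correlations of 0.442 and -0.614 in males and 0.189, 0.279 and -0.225 in females. Female floxed 1 correlated best with knockout 3. Male floxed 4 and male knockout 3 share no number with another male library, so in the block fits they had blocks of their own and added nothing to the male contrast. With the replicate block 25 members were called over both sexes and the male median was 1.17. With the block and the GC and length trend removed, 33 were called over both sexes, 21 in males (median 1.22) and 20 in females. The block split all genes called into 499 higher and 719 lower.

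Low counts on the minus strand limit those genes: 15 of 27 stayed under a mean of 1 CPM.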
